A study of Mus musculus with 6 samples.

Results

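The genes described here are Cck, Npy, Vip, Pvalb, Calb1 and Calb2, which encode peptides and calcium-binding proteins used to tell classes of interneurons apart. Every probe set whose only gene symbol is one of these was taken, which gave 7 probe sets for the 6 genes among the 22626 probe sets of an Affymetrix mouse array. Calb1 has 2 probe sets and each of the others has 1. The genes were chosen by name with their signal differences between the ECS and sham arrays already in view, so those differences are descriptions and carry no test. The tissue was the paraventricular nucleus of the hypothalamus (PVN) of C57Bl/6 mice, cut by laser from 7 µm brain sections. All mice were under isoflurane. The ECS groups received 1 electroconvulsive seizure (25 mA for 1 s through the ears) and were collected 2 h or 6 h later, and the sham group went through the same handling, without current, and was collected at 2 h. Each group holds 2 arrays, numbered as replicates 1 and 2, each made from the pooled RNA of 2 or 3 mice, and the experiment was run 2 times on different animals. The replicate numbers were read as these 2 runs, which the sample titles do not state. No sham array stands beside the 6 h group, so the seizure and the later collection cannot be told apart in that comparison. With n = 2 arrays in every group, the precision of all values is limited by that number.

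Interneurons are local inhibitory neurons, best known from cortex and hippocampus, where each class carries its own set of peptides and calcium buffers. Cholecystokinin (Cck), neuropeptide Y (Npy) and vasoactive intestinal peptide (Vip) are cut from precursor proteins, stored in dense-core granules and released to act on G protein-coupled receptors. Parvalbumin (Pvalb), calbindin (Calb1) and calretinin (Calb2) bind calcium through EF-hand loops and shape the calcium signals inside the cell. In the hypothalamus these genes are not limited to interneurons: Npy is made by arcuate neurons that project to the PVN, Vip by neurons of the suprachiasmatic nucleus, and Cck by some neurons of the PVN itself.

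The median signal of an array ran from 25.2 to 40.8. Of the 6 arrays, 1 stood apart from the others. The array of replicate 1 at 6 h had a mean rank correlation of 0.846 with the other arrays, against 0.869 to 0.890 for these. For the Gapdh transcript, the 3′ probe set was 14.1 times as bright as the 5′ one on that array, and 6.43 to 10.5 times on the others. With that array left out, the log2 differences from sham at 6 h were -0.90 for Cck, -1.20 for Npy, -0.31 for Vip and -1.76 for Pvalb. Without replicate 2 at 6 h they were -2.55, -1.58, -1.75 and -3.62. The part of array quality in the 6 h values was not tested beyond this.

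Cck, Npy, Vip and Pvalb lay below sham on both arrays at 2 h and on both arrays at 6 h. Calb1 and Calb2 did not share this: Calb2 and the brighter probe set of Calb1 lay slightly above sham at both times. At 2 h the difference ran from 3.10-fold lower for Vip to 5.38-fold lower for Pvalb, and Calb1 and Calb2 stood 1.24-fold and 1.27-fold higher. At 6 h it ran from 2.06-fold lower for Vip to 6.55-fold lower for Pvalb. These folds are on the scale of log2(signal + 16) after quantile normalization, where the added 16 shrinks the differences of dim probe sets. In pooled tissue, fewer cells of a type and less RNA per cell cannot be told apart.

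At 2 h, 4 of the 7 probe sets were lower than sham with no overlap between the arrays, against 16.4% of the 12662 probe sets tested, and 2 were higher with no overlap, against 16.3%. At 6 h the same 4 were lower, against 15.3% of all, and the other 3 were higher, against 14.8%. A difference of at least 2-fold with no overlap in the lower direction was met by 1.9% of all probe sets at 2 h and 1.96% at 6 h. Cck, Npy, Vip and Pvalb met it at both times. Both comparisons use the same sham arrays, and the genes were chosen with these comparisons known, so nothing is read from these counts. The linear model of limma, with p-values adjusted over all 12662 probe sets, called 0 of the 7 in any comparison and 0% of all probe sets. At an unadjusted p under 0.05 it had 507 probe sets at 2 h and 475 at 6 h. A fit with replicate blocks called 4 probe sets at 2 h, none of them of the 6 genes.

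**Figure D1:**
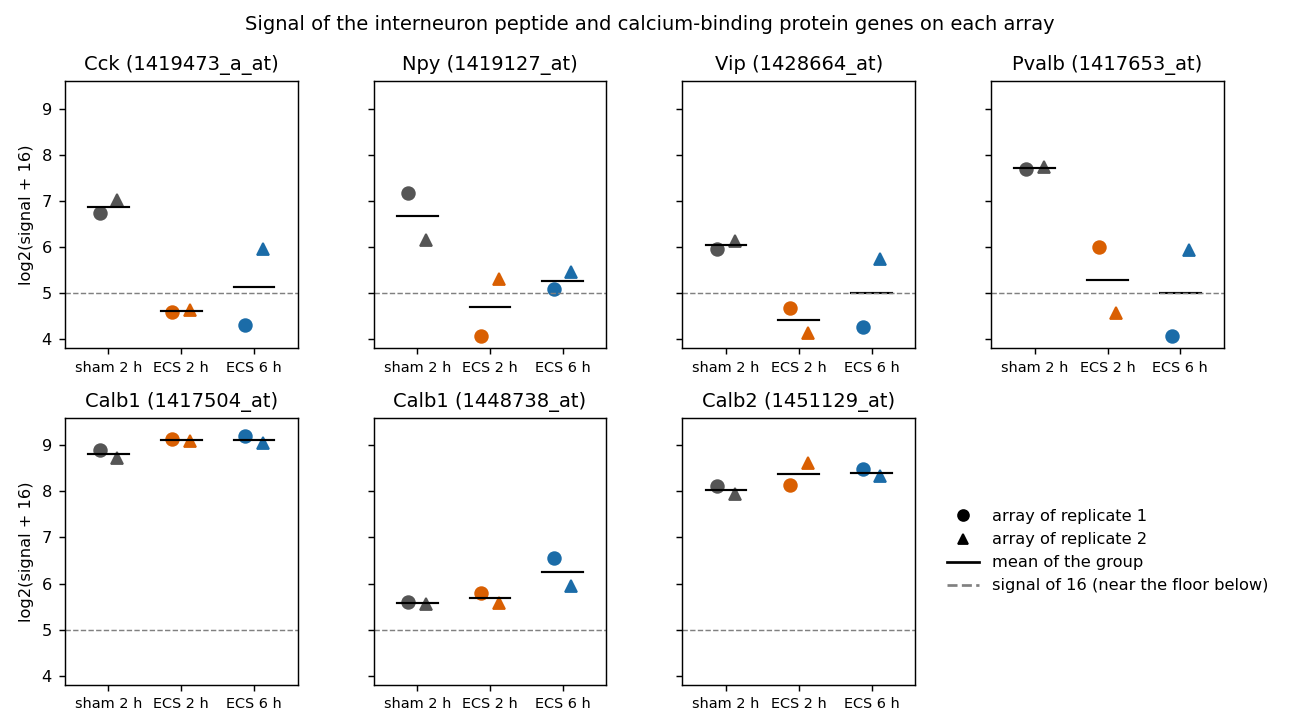
Signal of the 7 probe sets on each of the 6 arrays, as log2 of the quantile-normalized signal plus 16, by group. Circles and triangles are the arrays of replicates 1 and 2, bars are group means, and the dashed line marks a signal of 16. Cck, Npy, Vip and Pvalb lie below both sham arrays on all 4 ECS arrays, while Calb1 and Calb2 do not.

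A probe set was taken as near the signal floor on an array where its normalized signal was under 16. By that rule Cck and Vip were near the floor on 3 of the 6 arrays each, Pvalb on 2 and Npy on 1. The probe sets of Calb1 and Calb2 were near it on none. No array of the sham group was among them, so by this rule the 4 lower genes were near the floor on ECS arrays only. The rule rests on the offset and not on a detection call, so it does not show that a gene was detected in sham. The genes were also chosen with their differences from sham in view. All 7 probe sets passed the filter used for testing, a signal at or above the median of its own array on at least 2 of the 6 arrays. Npy passed it through the 2 sham arrays alone, and a probe set that enters in this way had to differ. Cck and Vip passed on the sham arrays and replicate 2 at 6 h, and Pvalb on these and replicate 1 at 2 h.

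The promoters of the 4 lower genes are shown because these genes lay below sham together. RefSeq windows on GRCm38.p6, from 250 bases before to 50 bases after an annotated start, matched 4 of the 6 genes, and Calb1 and Calb2 had no entry. The windows are chr9:121495645-121495944 on the minus strand for Cck, chr6:49822460-49822759 on the plus strand for Npy, chr10:5638968-5639267 on the plus strand for Vip, and chr15:78206351-78206650 on the minus strand for Pvalb, which has a further start. They are written 5′ to 3′ on the strand of the gene. Capitals mark matches on either strand to TGACG, the half-site of the cyclic AMP response element, to TATAAA, the TATA box, and to TATTTAA, a variant of it.
Cck: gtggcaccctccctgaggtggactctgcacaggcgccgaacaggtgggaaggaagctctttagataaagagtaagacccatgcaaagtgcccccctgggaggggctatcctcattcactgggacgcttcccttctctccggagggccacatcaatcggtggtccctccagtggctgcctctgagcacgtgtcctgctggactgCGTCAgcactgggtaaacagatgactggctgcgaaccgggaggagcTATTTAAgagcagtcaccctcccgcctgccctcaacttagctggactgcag
Npy: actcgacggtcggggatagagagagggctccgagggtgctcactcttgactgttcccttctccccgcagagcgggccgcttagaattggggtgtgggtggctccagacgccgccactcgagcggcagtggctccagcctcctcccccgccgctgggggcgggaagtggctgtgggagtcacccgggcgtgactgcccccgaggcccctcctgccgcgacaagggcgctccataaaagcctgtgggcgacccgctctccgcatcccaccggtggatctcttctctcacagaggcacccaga
Vip: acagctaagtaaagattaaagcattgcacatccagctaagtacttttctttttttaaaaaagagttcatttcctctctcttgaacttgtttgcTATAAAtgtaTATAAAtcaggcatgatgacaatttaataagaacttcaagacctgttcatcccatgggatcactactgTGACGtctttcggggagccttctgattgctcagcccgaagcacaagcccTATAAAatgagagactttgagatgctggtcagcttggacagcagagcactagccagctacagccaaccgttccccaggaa
Pvalb: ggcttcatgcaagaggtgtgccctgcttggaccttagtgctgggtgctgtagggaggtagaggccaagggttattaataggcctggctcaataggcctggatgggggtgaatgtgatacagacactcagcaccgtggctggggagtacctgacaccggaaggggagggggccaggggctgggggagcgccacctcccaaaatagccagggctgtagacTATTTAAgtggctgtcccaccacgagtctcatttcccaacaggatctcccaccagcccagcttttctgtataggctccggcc

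TGACG was found in Vip, with its first base 79 bases before the start, and in Cck on the opposite strand (as CGTCA), 47 bases before it. It was not found in the windows of Npy or Pvalb. Of all 32851 windows of the same length, 20.8% held TGACG on either strand. TATAAA stood in Vip at 157, 147 and 30 bases before the start, and 13.6% of all windows held it. TATTTAA began 32 bases before the annotated start in Pvalb and 1 base before it in Cck, and 4.51% of all windows held it. In Cck the rest of the match therefore lay at or after the annotated start. Both strands overlap where TGACG and CGTCA run into each other, which none of these windows showed. The windows differed in base composition, with 68% G and C in Npy against 41.7% in Vip. A match is a run of letters and not a measured binding site. No searched motif was in all 4 windows.

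Cck encodes the precursor of cholecystokinin, a peptide of cortical basket cells that is also made in the PVN. Its deposited signal was 71.8 and 139.9 on the sham arrays (replicate 1 first, as in all pairs here), 6.8 and 8.7 at 2 h, and 3.2 and 52.1 at 6 h. Both 2 h arrays and replicate 1 at 6 h were near the floor, and replicate 2 at 6 h lay between them and sham. In the ranking of all probe sets of an array, the gene stood at the 70.1 and 74.1 percentile in sham, at 27.6 and 28.9 at 2 h, and at 17.5 and 57.2 at 6 h. The mean log2 signal was 6.87 ± 0.20 (SD) in sham, 4.61 ± 0.029 at 2 h and 5.12 ± 1.17 at 6 h. The log2 difference from sham was -2.26 ± 0.56 (SE of limma) at 2 h, the 16th lowest of the 12662 tested, and -1.74 ± 0.56 at 6 h.

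Taken by replicate number, the Cck difference at 2 h was -2.13 within replicate 1 and -2.38 within replicate 2. At 6 h it was -2.43 and -1.06, so the replicates were close at 2 h and apart at 6 h. An offset of 1 gave -3.43 at 2 h and -2.78 at 6 h, and an offset of 64 gave -1.19 and -0.94. The size of the difference therefore depends on the offset. Its direction could not, because both ECS arrays lay below both sham arrays at each time.

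Npy encodes neuropeptide Y, a peptide that promotes feeding in the PVN and dampens excitation in cortical circuits. The arrays as deposited gave Npy a signal of 102 and 70.9 in sham, 0.7 and 23.9 at 2 h, and 15.7 and 31.7 at 6 h. The array of replicate 1 at 2 h was near the floor, at the 6.83 percentile of its array, and the other ECS arrays stood at the 40.0 to 47.9 percentile against 60.8 and 76.4 in sham. The mean log2 signal was 6.67 ± 0.72 (SD) in sham, 4.69 ± 0.87 at 2 h and 5.27 ± 0.27 at 6 h. Npy had the widest spread between the sham arrays of the 7 probe sets. The log2 difference from sham was -1.98 ± 0.55 (SE) at 2 h, or -3.11 within replicate 1 and -0.86 within replicate 2. At 6 h it was -1.40 ± 0.55, or -2.10 and -0.70 within the replicates. With an offset of 1 the 2 h difference was -3.68, a mean that includes the signal of 0.7 on replicate 1.

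Vip encodes vasoactive intestinal peptide, which in cortex marks interneurons that inhibit other interneurons and in the suprachiasmatic nucleus keeps the clock cells in step. It was the dimmest of the 4 lower genes on the sham arrays' own ranking, at the 57.1 and 60.3 percentile. Its deposited signal was 36.8 and 69.1 in sham, 8 and 1.4 at 2 h, and 2.7 and 42.3 at 6 h. Both 2 h arrays and replicate 1 at 6 h were near the floor, while replicate 2 at 6 h lay close to sham. As deposited, that array even exceeded replicate 1 of sham, so at 6 h the groups are apart only after scaling. The mean log2 signal was 6.04 ± 0.13 (SD) in sham, 4.40 ± 0.38 at 2 h and 4.99 ± 1.04 at 6 h. The log2 difference from sham was -1.63 ± 0.58 (SE) at 2 h and -1.04 ± 0.58 at 6 h. Within replicate 2 the 6 h difference was -0.40.

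Pvalb encodes parvalbumin, a calcium buffer of fast-spiking interneurons. Its deposited signal was 149.6 and 242.2 in sham, 38.6 and 7.6 at 2 h, and 0.8 and 50.9 at 6 h. After scaling the sham arrays were nearly equal, at 7.68 and 7.73 on the log2 scale, and every ECS array was lower. Replicate 2 at 2 h and replicate 1 at 6 h were near the floor, so the array that was lower had a different replicate number at each time. The mean log2 signal was 7.71 ± 0.033 (SD) in sham, 5.28 ± 1.01 at 2 h and 5.00 ± 1.31 at 6 h. The log2 difference from sham was -2.43 ± 0.64 (SE) at 2 h, the 11th lowest of those tested. Within replicates 1 and 2 it was -1.69 and -3.16. At 6 h it was -2.71 ± 0.64, or -3.62 and -1.81 within the replicates. An offset of 64 brought these to -1.52 and -1.62, and an offset of 1 to -3.24 and -4.43.

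**Figure D2:**
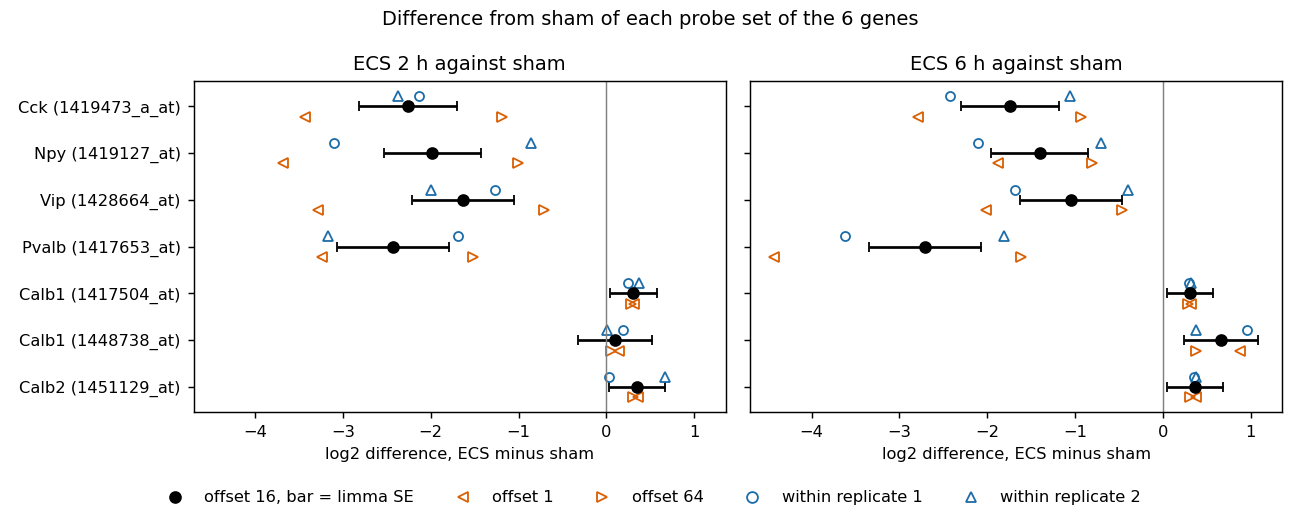
Log2 difference from sham of the 7 probe sets at 2 h and 6 h. Black points are the differences with an offset of 16 and bars their limma SE, orange triangles the same with offsets of 1 and 64, and blue open symbols the differences within replicates 1 and 2. For Cck, Npy, Vip and Pvalb every symbol lies below 0, from -0.40 to -4.43.

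Calb1 encodes calbindin, a calcium buffer of many interneurons and of some hypothalamic neurons. Its brighter probe set, 1417504_at, had a deposited signal of 361 and 487 in sham, 449.8 and 556.3 at 2 h, and 622.8 and 546.4 at 6 h. It stood at the 90.3 percentile or higher on every array, far from the floor. The mean log2 signal was 8.81 ± 0.13 (SD) in sham, 9.12 ± 0.037 at 2 h and 9.12 ± 0.11 at 6 h, and the difference from sham was 0.31 ± 0.26 (SE) at both times.

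The dimmer Calb1 probe set, 1448738_at, carries the same GenBank accession in the array annotation but sat near the middle of each array. Its deposited signal was 26.5 and 40.6 in sham, 31.8 and 32.8 at 2 h, and 75.3 and 51.5 at 6 h. The sham and 2 h arrays overlapped, with a log2 difference of 0.099 ± 0.42 (SE), which turned to -0.022 with the values as deposited. At 6 h both arrays were above sham, with a difference of 0.67 ± 0.42, and above 2 h, with a difference of 0.57 ± 0.42. The brighter probe set differed by 0.0029 between 6 h and 2 h, so the 2 probe sets of the gene disagree on a late increase.

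Calb2 encodes calretinin, a close relative of calbindin. The signal of Calb2 as deposited was 209 and 285.2 in sham, 213.5 and 396.8 at 2 h, and 361.2 and 328.9 at 6 h. The mean log2 signal was 8.04 ± 0.12 (SD) in sham, 8.38 ± 0.33 at 2 h and 8.40 ± 0.11 at 6 h. Replicate 1 at 2 h lay just above sham and the other ECS arrays further above. The difference from sham was 0.35 ± 0.32 (SE) at 2 h, or 0.025 within replicate 1 and 0.67 within replicate 2, and 0.36 ± 0.32 at 6 h. With the values as deposited, the sham and 2 h arrays of Calb2 and of the brighter Calb1 probe set overlapped.

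The comparison of 6 h with 2 h asks whether the signals differed between the times after the seizure. It shares its arrays with the comparisons against sham. Of the 7 probe sets, 1 (the dimmer one of Calb1) was higher at 6 h with no overlap, against 14.4% of all tested, and 0 were lower with no overlap, against 15%. The arrays of the other 6 overlapped. Leaving out 1 array of either group moved these counts, but a group of 1 array meets the rule more easily. No share of all probe sets was taken under that looser rule, so nothing is read from the change. The log2 difference was 0.51 ± 0.56 (SE) for Cck, 0.58 ± 0.55 for Npy, 0.59 ± 0.58 for Vip and -0.28 ± 0.64 for Pvalb. For Cck, Vip and Pvalb the replicates disagreed, with a negative difference within replicate 1 (-0.29, -0.41 and -1.93) and a positive one within replicate 2 (1.32, 1.59 and 1.36). For Npy it was positive within both, at 1.00 and 0.16. Limma called 0 probe sets of the whole array between these times, with 438 at an unadjusted p under 0.05.

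Tested markers of principal neurons of cortex and hippocampus lay below sham, as the 4 lower genes did. Of 8 listed, 5 were on the array with a symbol of their own, 3 of these were tested, and all 3 (the kinase Camk2a, the transcription factor Tbr1 and the calmodulin-binding Nrgn) were below sham with no overlap at both times. Among all probe sets tested, 16.4% were so at 2 h and 15.3% at 6 h. Neurod6 and Neurod2, on the array but not tested, were lower with no overlap at 2 h, at -1.51 and -0.99. At 6 h both overlapped sham, at -0.86 and 0.0023. The summed normalized signal of the 5 was 690 and 810 in sham, 49.5 and 125 at 2 h, and 169 and 558 at 6 h. Most of each sum was Camk2a, at 454 and 536 in sham, 36.9 and 93.9 at 2 h, and 130 and 427 at 6 h. In the sum, the order of the arrays resembled that of Cck, with both 2 h arrays and replicate 1 at 6 h low and replicate 2 at 6 h closer to sham. None of the 5 was near the floor on all arrays, but Neurod2 was near it on 4, Neurod6 and Tbr1 on 3 each and Nrgn on 2. Nrgn stood at 6.71 and 7.14 in sham, 4.37 and 5.30 at 2 h, and 4.20 and 5.82 at 6 h on the log2 scale. The part of these markers in the differences of Cck, Npy, Vip and Pvalb was not tested.

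Most markers of the labelled nucleus were above the floor. Of 7 PVN genes 6 were on the array, among them Oxt, Avp, Trh and the transcription factor Sim1, and their summed signal was 3817 and 3846 in sham, 4871 and 4593 at 2 h, and 5218 and 4613 at 6 h. Otp, a factor that specifies these neurons, was near the floor on 5 of the 6 arrays. General neuron markers summed to 13535 and 12669 in sham, 9603 and 9089 at 2 h, and 10119 and 11641 at 6 h, with all 9 lower on average at both times. Markers of the suprachiasmatic nucleus, a source of Vip, summed to 237 and 188 in sham, 233 and 234 at 2 h, and 462 and 130 at 6 h. Those of the arcuate nucleus, a source of Npy, summed to 470 and 406 in sham, 567 and 553 at 2 h, and 576 and 502 at 6 h. At 2 h the suprachiasmatic sums lay between those of the sham arrays and the arcuate sums above them. The suprachiasmatic sum holds members on both sides of sham at 2 h: the peptide gene Grp, named after its values were seen, was lower with no overlap (-0.78 ± 0.49, SE), and Rgs16 was at 0.67 ± 0.61 with overlap. So does the arcuate sum at 2 h, where Cartpt, its brightest member, was at 0.47 ± 0.30 and Pomc at 0.33 ± 0.36. Ghrh was at -0.14 ± 0.42, and Tac2, near the floor on 5 arrays and not tested, at -0.75. Agrp and Kiss1 of the arcuate list had no probe set with a symbol of their own. Over the 6 arrays the thalamus list summed to between 324 and 590, the striatum list to between 39.1 and 92.5, and the ependyma and choroid plexus list to between 17.3 and 24.7. Glial and vessel lists ran from 1212 to 1672 for astrocytes, 1720 to 2669 for oligodendrocytes, 799 to 1260 for microglia and 135 to 306 for endothelium. The oligodendrocyte sum was lower than sham on every ECS array, but its tested members differed. Mbp, the brightest, was at -0.34 at 2 h and -0.64 at 6 h, and Cldn11 at -0.80 and -1.09. Cnp overlapped sham at both times, at 0.078 and -0.056.

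**Figure D3:**
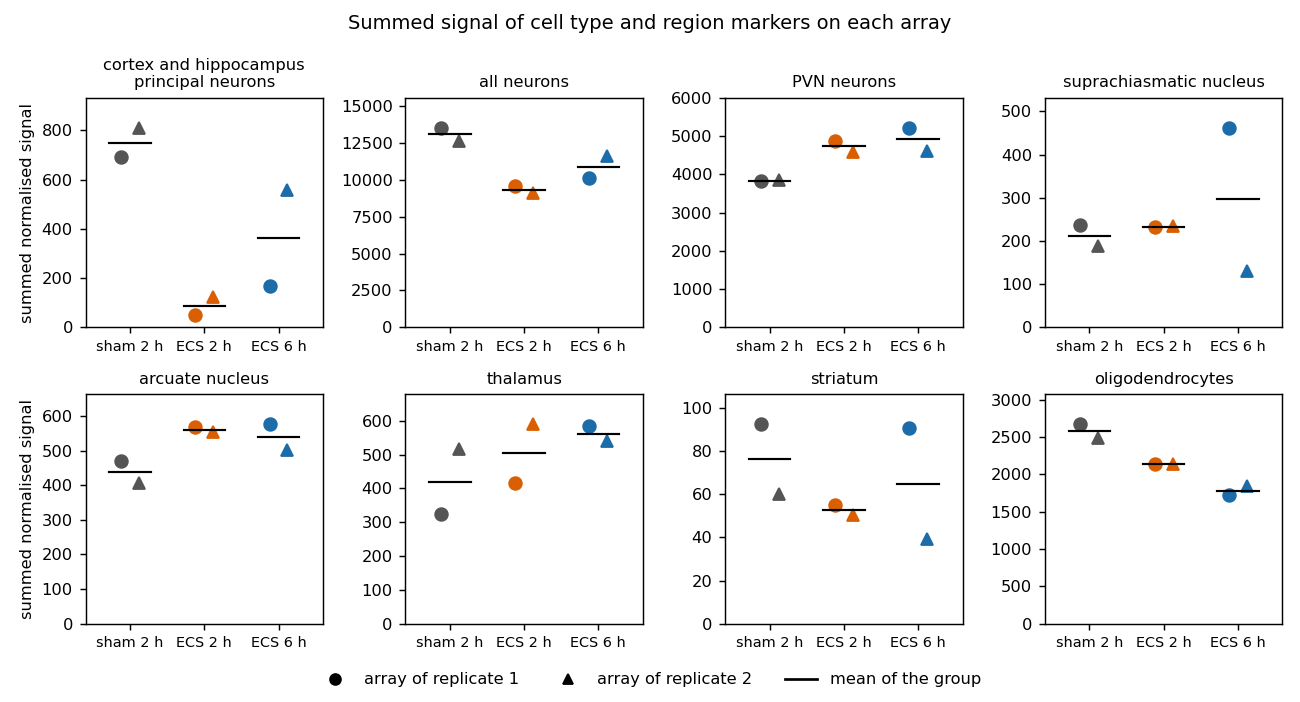
Summed quantile-normalized signal of 8 lists of region and cell type markers on each array, by group, each axis starting at 0. Circles and triangles are replicates 1 and 2 and bars are group means. The cortex and hippocampus list stands at 690 and 810 in sham and at 49.5 and 125 at 2 h, while the PVN list is no lower after ECS than in sham. Most of the cortex and hippocampus sum is the signal of Camk2a.

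Of 7 genes for receptors of the 3 peptides, 4 were bright enough to be tested, all of them receptors of cholecystokinin or neuropeptide Y, with 0 called by limma in either direction at 2 h and at 6 h. With no overlap, 2 were lower than sham at 2 h (Cckar and Cckbr) and 1 at 6 h (Cckbr), and 0 were higher at either time. The shares of all tested probe sets were 16.4% lower and 16.3% higher at 2 h, and 15.3% and 14.8% at 6 h. Their median log2 difference was -0.12 at 2 h and -0.16 at 6 h, where all tested probe sets had a median of 0.0077 and -0.0033. The brightest members were Cckar and Cckbr, the receptors of cholecystokinin, and Npy1r and Npy2r, of neuropeptide Y. Cckbr, the brain-type receptor, was at -0.38 ± 0.46 (SE) at 2 h and -0.51 ± 0.46 at 6 h. Cckar was at -0.41 ± 0.52 and -0.18 ± 0.52, Npy1r at 0.25 ± 0.56 and -0.14 ± 0.56, and Npy2r at 0.13 ± 0.66 and 0.19 ± 0.66. Cckbr, Npy1r and Npy2r were each near the floor on 2 arrays, so small differences there do not show levels like those of sham. The receptors of Vip, Vipr1 and Vipr2, were near the floor on all 6 arrays and not tested.

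Other interneuron genes lay on both sides of sham. Of 20 listed, 17 were on the array and 10 were tested, with 3 higher and 7 lower at both times, 0 called in either direction, and a median of -0.16 at 2 h and -0.31 at 6 h. The brightest were Tac1, the precursor of substance P, Sst, somatostatin, and Gad2 and Gad1, which make GABA. Sst, which marks a further class of interneurons and is also a hypothalamic release-inhibiting hormone, lay above sham on all ECS arrays, at 8.85 and 8.87 in sham, 10.02 and 9.20 at 2 h, then 9.81 and 9.08 at 6 h on the log2 scale. Its difference was 0.75 ± 0.34 (SE) at 2 h and 0.59 ± 0.34 at 6 h, opposite in sign to Cck, Npy and Vip. Tac1 was at 0.50 ± 0.30 and 0.19 ± 0.30. Gad2 was at -0.20 ± 0.30 and -0.24 ± 0.30, and Gad1 at -1.27 ± 0.62 and -1.15 ± 0.62. Gad1 was below the sham array of the same replicate number on all 4 ECS arrays, at 7.21 and 8.80 at 2 h and 7.22 and 9.02 at 6 h against 8.84 and 9.71 in sham. Lamp5 and Nos1, named after their values were seen, had the lowest differences of the list at 2 h and at 6 h. Lamp5, a membrane protein of a cortical interneuron class, was at -3.36 ± 0.86 and -2.67 ± 0.86, and Nos1, which makes nitric oxide, at -1.79 ± 0.46 and -1.18 ± 0.46. Both were below sham with no overlap at both times, as Cck, Npy, Vip and Pvalb were. That order held for 16.4% of all tested probe sets at 2 h and 15.3% at 6 h.

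**Figure D4:**
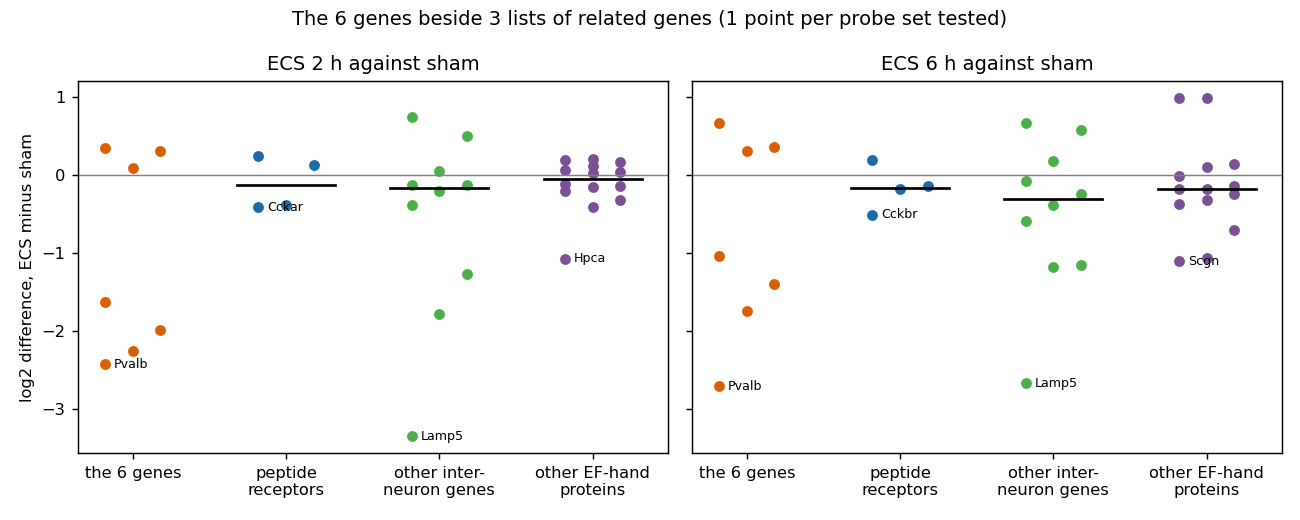
Log2 difference from sham at 2 h and 6 h of the 7 probe sets of the 6 genes and of the tested members of 3 lists of related genes, 1 point per probe set. Black lines are list medians and the gene at the lowest point of each column is named. The list medians lie between -0.31 and -0.043, and Lamp5 is the lowest of the other interneuron genes at both times.

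Other EF-hand calcium-binding proteins were also mixed. Of 24 listed, 18 were on the array and 14 were tested, with 7 higher and 7 lower at 2 h and 4 higher and 10 lower at 6 h. Limma called 0 of them in either direction, and the median was -0.043 at 2 h and -0.18 at 6 h. The brightest were Vsnl1, Ncald and Hpca, neuronal calcium sensors that move to membranes when they bind calcium, and Kcnip1, which binds potassium channels. Hpca, hippocalcin, was below sham on all ECS arrays, at 9.86 and 10.12 in sham, 9.39 and 8.44 at 2 h, and 8.30 and 9.54 at 6 h, a difference of -1.07 ± 0.42 (SE) at both times. Vsnl1 was at -0.41 ± 0.18 at 2 h and -0.37 ± 0.18 at 6 h, Ncald at -0.14 ± 0.29 and 0.11 ± 0.29, and Kcnip1 at 0.13 ± 0.29 and -0.0094 ± 0.29.

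The genes whose pattern over the 6 arrays was most like each member were found by Pearson's r among 7331 other genes, given as a description since the 6 arrays share 3 groups. For Cck these were Mef2c, an activity-dependent transcription factor (r = 0.995), Rasgrp1, an activator of Ras (0.985), and St6galnac5, a sialyltransferase (0.983). Mef2c and Rasgrp1 had log2 differences of -3.00 and -2.70 at 2 h and -2.34 and -1.98 at 6 h. For Vip they were Cnot8 (r = 0.994), a subunit of the deadenylase that shortens mRNA tails, Rasgrp1 again (0.990), and Lamp5 (0.985). Lamp5 stood at 8.27 and 8.82 in sham, 5.51 and 4.86 at 2 h, and 4.11 and 7.64 at 6 h on the log2 scale, with replicate 2 at 6 h again closest to sham. For Npy they were St3gal5, which makes the ganglioside GM3 (r = 0.984), Tshz2 (0.974) and Hivep3 (0.973). For Pvalb they were Nav2 (r = 0.989), Mgll, which breaks down an endocannabinoid (0.982), and Stmn1, a destabilizer of microtubules (0.981). For the brighter Calb1 probe set they were Cartpt (r = 0.994), the precursor of the CART peptides, Pcgf2 (0.966) and Ppp1r2 (0.963). Cartpt was 0.47 above sham at 2 h and 0.48 at 6 h. For Calb2 they were Atg2a (r = 0.974), Cacfd1 (0.968) and Prim2 (0.967).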

How the data were processed

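The deposited table holds linear probe set intensity, made by the authors with MAS5 according to the submitters' processing notes. No version, scaling target or detection call is given in the sources used here. Each array took 2 ng of RNA, amplified to 5 µg of labelled cDNA, per the labels' protocols. Because array medians differed, the arrays were quantile-normalized, 16 was added and log2 taken. Without 64 control probe sets, 22626 remained, of which 20380 had 1 gene symbol, 691 several and 1555 none in the platform annotation. The 12662 reaching the median of their array on 2 or more arrays were tested with limma 3.58.1 in R 4.3.3 (group means over all 6 arrays, intensity trend, Benjamini-Hochberg adjustment, threshold 0.05, two-sided), a procedure tested on simulated data.

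The members and lists were chosen with earlier results of these data known. List genes are represented by their brightest probe set, with up to 4 named per list by mean signal, and the 3 genes of highest r are named per member. Replicate numbers were read as the 2 runs, which is an assumption. Replicate 1 deviated from the group means in a shared way (correlations over probe sets of 0.15 to 0.23 between groups). It also had the lower array median in every group, and the source of the shared deviation was not tested. A replicate block was therefore fitted as an alternative, beside offsets of 1 and 64, scaling, filter, trend, array weights, the arrays fitted, and leaving out each array.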

Additional observations from a re-analysis of the deposited data

How the results depend on the processing

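The count of probe sets called at 2 h against sham was 0 and became 1 with the values as deposited, 1 with median subtraction, 2 with array weights, 4 with the replicate block and 12 when the fit held the 4 compared arrays alone. Leaving out each array in turn gave 0 to 10 at 2 h against sham (10 without either 6 h array), 0 to 6 at 6 h against sham and 0 to 3 at 6 h against 2 h (6 and 3 without replicate 2 at 6 h). None of these calls was a probe set of the 6 genes, and the block, with the pairing by replicate number, changed no other call. The 4 probe sets lower than sham with no overlap stayed 4 at 2 h under all 17 alternatives. At 6 h they were 3 with the values as deposited, where Vip overlapped. The offset, filter, trend, array weights, block and arrays fitted cannot change the order of arrays that do not overlap. Leaving out an array of a compared group eases the rule, apart from the renewed scaling. So mainly the scalings could have changed these counts or the direction of Cck, Npy, Vip and Pvalb. Cck, Npy, Vip and Pvalb kept their direction in all 126 values against sham, and the probe sets of Calb1 and Calb2 in 98 of 100. The exceptions were the dimmer Calb1 probe set at 2 h with the values as deposited (-0.022) and without replicate 1 at 2 h (-0.011). Calb2 at 2 h was 0.11 without replicate 2 at 2 h and 0.58 without replicate 1. At 6 h the dimmer Calb1 probe set was 0.35 without replicate 1. Median subtraction moved the median of all tested probe sets to 0.10 at 6 h against sham, and the deposited values moved it to 0.16 at 6 h against 2 h. Relative to that median Calb1 (brighter probe set) and Calb2 were at 0.39 and 0.40 at 6 h with median subtraction. With a filter at the 75th percentile Cck, Npy, Vip and the dimmer Calb1 probe set were not tested, nor was Npy without either sham array. Signals near the floor limit the size of the differences of Cck, Npy, Vip and Pvalb, and the cause of the other shifts was not tested.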
